A study of Mus musculus with 8 samples.

Results

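The genes described here are Cxcl12, Cxcr4 and Ackr3, 3 of the 17921 genes counted in 20778 single cells of transplanted mouse lung. They were chosen by name, as a chemokine and its receptors, and they are described in each annotated cell type, in each cluster of structural cells and B cells, and in each group of mice. Left lungs were transplanted orthotopically into B6 recipients, without immunosuppression, and the grafts were taken 1 month later. In the B6→B6 group (5 mice) the donor was a male B6 mouse, and these grafts served as controls that do not reject. In the HLA→B6 group (3 mice) the donor was a male HLA mouse, of a B6-background line with the transgene Tg(HLA-A2.1)1Enge that encodes a human HLA molecule, and these grafts develop bronchiolitis obliterans syndrome (BOS), a form of chronic rejection. All grafts were transplanted, so the comparison holds the effect of donor strain among operated lungs, and an untransplanted lung was not analysed here. Each mouse gave 1 droplet library, for which 10000 cells were loaded on a chip that captures the 3′ ends of polyadenylated RNA.

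Cxcl12 is a chemokine made by stromal and endothelial cells that holds and attracts leukocytes. Cxcr4 is its G protein-coupled signalling receptor, found on most leukocytes and known for retaining cells in the bone marrow and for positioning B cells and plasma cells. Ackr3 (formerly Cxcr7) is an atypical receptor that binds the same ligand without coupling to G proteins, takes it up and degrades it, and so shapes the ligand gradient that Cxcr4-bearing cells read.

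Cxcl12 lies on the forward strand of chromosome 6 at chr6:117168535-117181367 (GRCm38, the build of the counts), with 3 coding transcripts and 1 retained-intron transcript in the GENCODE annotation. The coding sequences of the 3 isoforms share their first 267 bases and differ only in what follows. Their ends are shown because the count adds these isoforms together, with the last 18 shared bases in lower case and the isoform's own bases, stop codon included, in capitals.
Cxcl12-201: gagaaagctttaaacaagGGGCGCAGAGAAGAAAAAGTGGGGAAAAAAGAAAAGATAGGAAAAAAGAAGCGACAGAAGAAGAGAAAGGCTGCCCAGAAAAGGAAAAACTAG
Cxcl12-202: gagaaagctttaaacaagTAA
Cxcl12-203: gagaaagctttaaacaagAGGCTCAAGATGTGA
The 3 coding sequences hold 119, 89 and 93 codons before the stop. Cxcl12-202 ends at base 117175069, well before Cxcl12-201 at 117181367 and Cxcl12-203 at 117181366, and the deposited count per gene does not tell them apart. Every Cxcl12 level below is therefore a sum over forms with different C-terminal tails.

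Cxcr4 lies on the reverse strand of chromosome 1 at chr1:128588199-128592293 and Ackr3 on the forward strand of the same chromosome at chr1:90203980-90216751, each with 2 annotated transcripts. The 250 bases before the Ackr3 start site, chr1:90203730-90203979 on the forward strand in RefSeq's GRCm38.p6, are shown because Ackr3 was the member that differed between the groups. Capitals mark the letters of a GC box, GGGCGG, and those of a box near many start sites, TATAAA.
Ackr3 promoter: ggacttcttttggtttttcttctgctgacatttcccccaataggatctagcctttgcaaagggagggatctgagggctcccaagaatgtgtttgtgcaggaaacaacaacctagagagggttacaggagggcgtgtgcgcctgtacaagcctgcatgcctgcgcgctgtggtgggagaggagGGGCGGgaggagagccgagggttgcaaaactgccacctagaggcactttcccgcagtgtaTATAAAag
Motifs were searched on both strands in 32817 RefSeq windows that held the 250 bases before a start site and a short stretch after it. TATAAA occurred in 13.6% of these longer windows and GGGCGG in 35.6%. GGGCGG occurred once in the Ackr3 window, 5 times in the Cxcl12 window, where 2 of the matches overlap by 1 base, and 3 times in the Cxcr4 window. TATAAA occurred in the Ackr3 window and, on both strands with overlap, in the Cxcr4 window. The motifs of interferon and cytokine signalling searched in the same way were TTCNNNGAA, which binds STAT dimers and was in 8.29% of windows, the interferon-stimulated response element, in 3.43%, and a motif bound by NF-kB, in 1.63%. These were not in the windows of the 3 members.

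The libraries held 868 to 6544 cells and 1669076 to 12445769 unique molecular identifiers (UMIs, counted molecules), with a median of 1356 to 1948 UMIs per cell. Levels are given in CPM, a gene's UMIs divided by all UMIs of the population's cells in that mouse and scaled to 1000000, over mice with at least 10 such cells. Because the 3′ end of each molecule is counted, CPM was compared for 1 gene across populations and mice, never between genes. Of the cells, 1014 shared their barcode with a cell of another library. Sharing was frequent among 4 libraries, those of HLA→B6 replicate 2 and of the first 3 B6→B6 mice, and results were also computed without the 793 cells that were the shallower copies or could not be assigned. The annotated names of structural clusters 1, 2 and 7, all "Epithelial cells", went against their genes: a list of 4 pan-endothelial genes summed to 6136, 11278 and 3273 CPM there, and 4 epithelial genes to 14, 5 and 69 CPM, against 2642 CPM of the epithelial genes in cluster 8. Clusters 1 and 2 are therefore called by number and treated with the endothelial clusters 0, 5 and 9, while clusters 4, 6, 7 and 10 carried red blood cell, T cell, platelet and B cell genes.

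Ligand and atypical receptor were found in the structure of the graft, and the signalling receptor in its leukocytes. In all, 2497 Cxcl12, 4258 Cxcr4 and 1737 Ackr3 UMIs were counted, in 7.13%, 15.7% and 5.27% of cells. Structural cells held 95.2% of the Cxcl12 and 94.3% of the Ackr3 UMIs but 3.57% of the Cxcr4 UMIs, while being 26.5% of the cells. Cxcr4 UMIs were spread over alveolar macrophages (21.9%), B cells (19.5%), monocytes (18.8%), T cells (17.2%) and leukocytes (9.63%). Clusters were drawn from the same counts, so differences between them are described without a test.

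**Figure D1:**
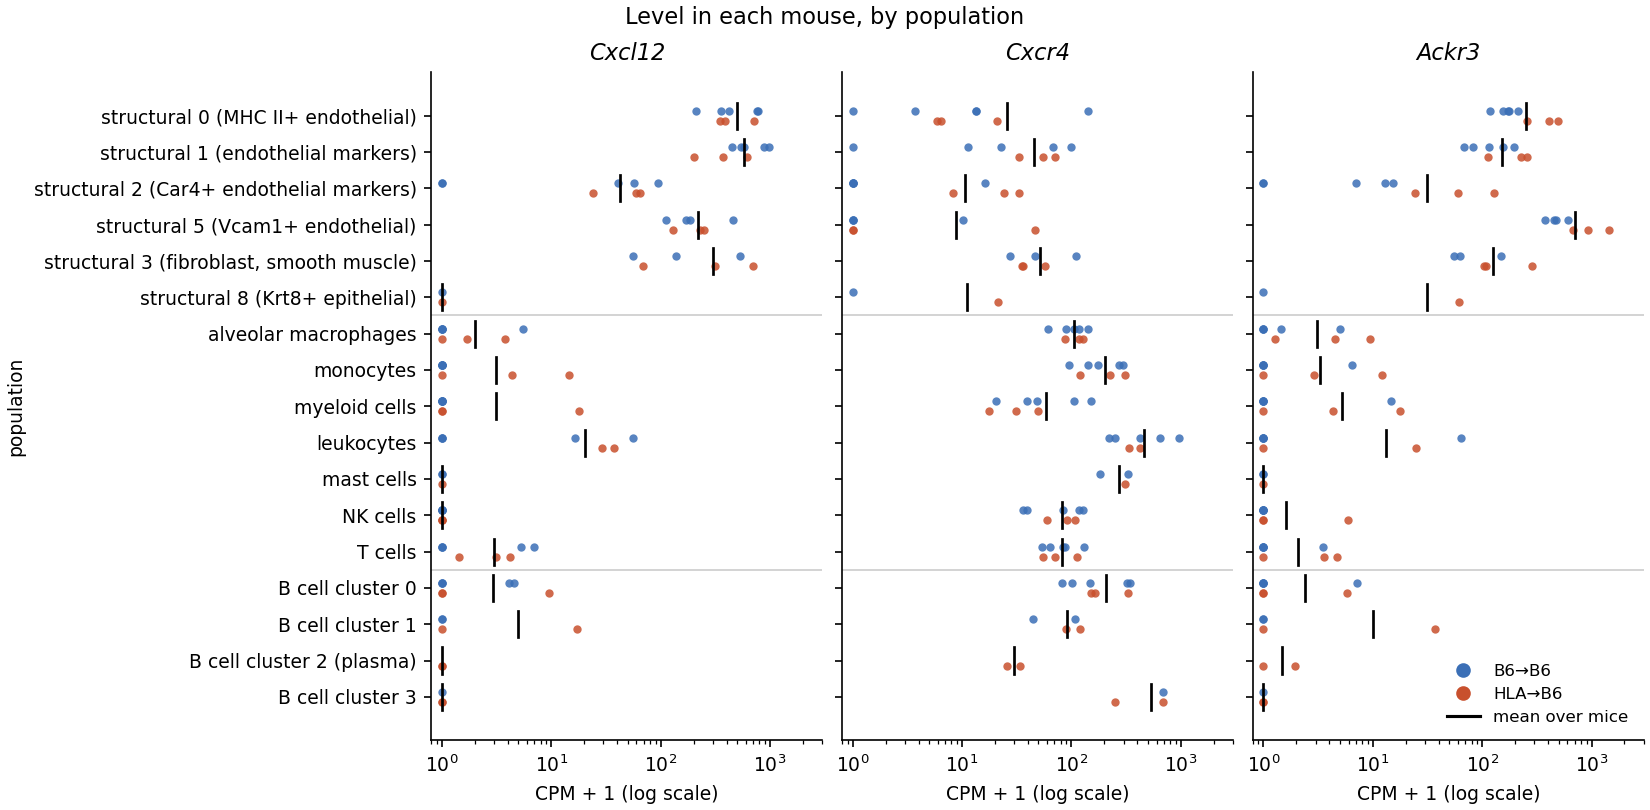
Level of Cxcl12, Cxcr4 and Ackr3 (CPM + 1, logarithmic axis) in each population with enough cells, 1 point per mouse (blue B6→B6, red HLA→B6), with the mean over mice as a black line. Cxcl12 and Ackr3 lie farthest to the right in clusters 0, 1, 5 and 3, are low in cluster 2, and lie at or near 1 in most mice of the immune populations, with the cells annotated as leukocytes reaching up to cluster 2. The mean of Cxcr4 is highest in B cell cluster 3 and in the cells annotated as leukocytes, and the myeloid cells and the plasma cells overlap the structural clusters.

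Cxcl12, the ligand, was most abundant in structural clusters 1 and 0, at 574 ± 253 and 496 ± 221 CPM (SD, n = 8 mice each). Cluster 3, annotated as fibroblasts and smooth muscle cells, had 301 ± 267 CPM (n = 6) and cluster 5, annotated as Vcam1+ endothelial cells, 218 ± 116 CPM (n = 7). These neighbours in the order lay within the larger SD of each other, so their order is not resolved. Cluster 2, which had 7456 CPM of the Car4-positive capillary list, had only 41.9 ± 32.8 CPM of Cxcl12 (n = 8), the lowest of clusters 0, 1, 2 and 5. Of the Cxcl12 UMIs in structural cells, 51.7% lay in cluster 0, 30.7% in cluster 1 and 9.47% in cluster 3. With each cell thinned to 500 UMIs, 18.3% of cluster 0 cells carried a Cxcl12 UMI, against 0.157% of T cells and 0.0818% of alveolar macrophages, cell types taken to lack the gene. Unthinned, these shares were 31.9%, 0.434% and 0.481%, at a median of 1069, 1648 and 2792 UMIs per cell. Cells with under 500 UMIs, 120 of the 2364 in cluster 0, were left out of thinned shares.

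Over clusters 0, 1, 2 and 5 pooled, the ligand was seen more often in cells with arterial genes, and also in cells with general capillary genes. Cells with at least 2 UMIs of an 8-gene arterial list carried a Cxcl12 UMI in 21.1% of cases after thinning, against 11.8% of cells with none, and this was so in 8 of 8 mice. Cells with at least 2 UMIs of the Car4-positive capillary list did so in 6.85% against 18.8%, with the lower value in all 8 mice. That pool holds cluster 2, where this list was high and Cxcl12 low. In cluster 0 alone the shares were 15.1% and 19.3%, higher with Car4-list UMIs in 2 of 4 mice. For a 4-gene general capillary list the pooled Cxcl12 shares were 16.6% and 11.9%, higher with its UMIs in 6 of 8 mice. In cluster 0 alone they were 17.1% and 23.7%, higher in 0 of 4 mice. The clusters and the marker genes come from the same cells, so these values describe and do not test.

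Ackr3, the atypical receptor, had its highest level in cluster 5, at 707 ± 373 CPM (n = 7), and the gap to the next population exceeded the SD. Cluster 0, annotated as MHC II+ endothelial cells, followed with 248 ± 134 CPM (n = 8), then cluster 1 with 151 ± 69.4 CPM (n = 8), cluster 6, which carried T cell genes, with 138 ± 91.2 CPM (n = 3), and cluster 3 with 126 ± 83.3 CPM (n = 6), which were not separated beyond their spread. Cluster 5 held 18.4% of the Ackr3 UMIs of structural cells with 4.50% of their cells, and cluster 0 held 57.0% with 42.9%. Cluster 5 carried 4143 CPM of a venous list (Vwf, Slc6a2, Ackr1, Nr2f2, Selp and Vcam1). Cluster 2 had 30.3 ± 43.8 CPM of Ackr3 (n = 8). Among cell types outside the structural cells with at least 3 mice, mean levels were 12.3 CPM or less. Thinned to 500 UMIs, 26.8% of cluster 5 and 14.1% of cluster 0 cells carried an Ackr3 UMI, against 0.0980% of T cells (49.2%, 25.5% and 0.316% unthinned, with a median of 1356, 1069 and 1648 UMIs).

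Over clusters 0, 1, 2 and 5 pooled, Ackr3 was seen more often in cells with venous genes, in a pool that holds cluster 5, where both were high. Cells with at least 2 venous-list UMIs carried an Ackr3 UMI in 22.2% of cases, against 10.1% of cells with none, in 7 of 7 mice. Cells with Car4-list UMIs did so in 4.62% against 13.1%, with the higher value in 0 of 8 mice. In cluster 0 alone, the venous shares were 20.6% and 13.6%, higher with venous UMIs in 2 of 3 mice. For a 4-gene general capillary list the pooled shares were 12.1% and 8.16%, higher with its UMIs in 7 of 8 mice. In cluster 0 alone they were 13.4% and 18.9%, higher in 0 of 4 mice. For the arterial list the pooled shares were 9.84% and 13.2%, but the arterial cells had the higher value in 5 of 8 mice. In cluster 0 alone, cells with at least 2 arterial UMIs carried Ackr3 in 10.8% of cases and cells with none in 18.7%, with the higher value in the arterial cells of 1 of 7 mice. Cxcl12 was at 21.7% and 14.9% in the same cells, with the higher value in the arterial cells of 5 of 7 mice. Some single cells held both ligand and atypical receptor: of 2244 cluster 0 cells with at least 500 UMIs, 724 had a Cxcl12 UMI, 593 an Ackr3 UMI and 168 both. Whether 168 differs from the number expected of unrelated genes was not tested. Pooled over mice and thinned, 13.2% of the cells with Ackr3 and 20.2% of those without carried Cxcl12, at a median of 1256 and 1047 UMIs. Whether Cxcl12 was higher in cells with Ackr3 or in those without varied from mouse to mouse. After thinning, Cxcl12 was lower in the cells with Ackr3 in 3 of the 5 mice with at least 10 cells of each kind and higher in 2, at 11.6% against 18.4% in HLA→B6 replicate 1, which gave most of the cells compared, and at 32.6% against 26.7% in HLA→B6 replicate 3.

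Cxcr4, the signalling receptor, was highest in B cell cluster 3 at 538 ± 251 CPM (n = 3), a small cluster with a median of 533 UMIs per cell, and in the cells annotated as leukocytes at 464 ± 258 CPM (n = 7), in which a 5-gene neutrophil list summed to 188372 CPM. Mast cells followed with 272 ± 79.2 CPM (n = 3), then B cell cluster 0, the bulk of B cells, with 205 ± 108 CPM and monocytes with 203 ± 82.9 CPM (n = 8 each). Alveolar macrophages had 105 ± 26.0 CPM, NK cells 81.8 ± 34.8 CPM and T cells 81.1 ± 27.4 CPM (n = 8 each), and B cell cluster 1 had 89.7 ± 33.7 CPM (n = 4). Thinned to 500 UMIs, 10.5% of B cells and 4.63% of T cells carried a Cxcr4 UMI, against 0.820% of structural cells (27.6%, 12.9% and 2.27% unthinned, with a median of 1598, 1648 and 1127 UMIs).

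Plasma cells, which use Cxcr4 to settle in bone marrow, had a low level by this measure. B cell cluster 2, the plasma cells, held 47 Cxcr4 UMIs in 172 cells, 34.3 CPM over all its mice. Immunoglobulin genes made up 69.2% of its UMIs, and with those genes left out of the total, a scaling added after the data were seen, the level was 111 CPM, against 223 CPM in B cell cluster 0. In UMIs per cell, the 2 clusters had 0.273 and 0.366. Only HLA→B6 replicates 1 and 2 had at least 10 plasma cells, so the groups were not compared.

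The design compares grafts from HLA and B6 donors, and of the 3 genes Ackr3 alone passed the test, with higher levels in endothelial clusters of HLA→B6 grafts. In cluster 0, Ackr3 was at 170, 155, 117, 176 and 210 CPM in B6→B6 replicates 1 to 5 and at 407, 495 and 256 CPM in HLA→B6 replicates 1 to 3. Every HLA→B6 mouse was above every B6→B6 mouse, which held for 2.00% of the 3645 genes tested. The means were 165 and 386 CPM, and the log2 fold change was 1.44 (SE 0.28, 95% interval 0.86 to 2.01; edgeR quasi-likelihood test, adjusted p = 0.0120), in a cluster where 0.686% of genes passed the threshold of 0.05. The depth was thin in some mice, with 41, 7, 43, 14 and 3 Ackr3 UMIs in the B6→B6 mice and 599, 200 and 26 in the HLA→B6 mice. Leaving out 1 mouse at a time kept the log2 fold change between 1.23 and 1.64. The edgeR adjusted p rose to 0.0803 without B6→B6 replicate 3, to 0.0579 without HLA→B6 replicate 1, and to 0.121 when replicate 2 of that group was left out. P-values here and below measure the spread between these mice.

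In cluster 5, where Ackr3 was highest, it was at 606, 373, 457 and 468 CPM in B6→B6 replicates 1 to 4 and at 931, 673 and 1443 CPM in the HLA→B6 mice. B6→B6 replicate 5 had under 10 such cells and was dropped. The groups again did not overlap, as for 9.71% of the 721 genes tested. The log2 fold change was 1.11 (SE 0.28, 95% interval 0.51 to 1.71; edgeR, adjusted p = 0.0252), and 9.02% of genes passed. This call is the less firm, since it was lost with mice of at least 20 cells only (log2 fold change 0.75, edgeR adjusted p = 0.198). It was also lost without B6→B6 replicate 2, 3 or 4 (adjusted p = 0.0670, 0.0536 and 0.0717) and without HLA→B6 replicate 1 or 3 (0.0600 and 0.0949).

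In cluster 1, Ackr3 was at 81.6, 67.2, 113, 154 and 195 CPM in the B6→B6 mice and 227, 257 and 112 CPM in the HLA→B6 mice. HLA→B6 replicate 3 lay inside the B6→B6 range, and the log2 fold change of 0.68 (95% interval -0.05 to 1.41; edgeR, adjusted p = 0.674, 1.02% of genes called) did not pass. Whether clusters 0 and 1 differ in their response was not tested. In cluster 2, with 20 Ackr3 UMIs in all, the gene did not pass the filter on low counts. It was at 0, 14.4, 11.8, 6.08 and 0 CPM in the B6→B6 mice and 128, 58.6 and 23.3 CPM in the HLA→B6 mice. The HLA→B6 values were all higher, but with so few UMIs this separation is not resolved. Of the genes that passed the filter in this cluster, 3.59% lay apart in this direction, a share that does not cover Ackr3. In cluster 3 Ackr3 also did not pass the filter, at 54.7, 61.8 and 146 CPM in B6→B6 replicates 1, 3 and 4 and 108, 102 and 282 CPM in the HLA→B6 mice, with overlap.

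Over all structural cells, Ackr3 was at 161, 80.9, 75.0, 107 and 40.8 CPM in the B6→B6 mice and 307, 315 and 100 CPM in the HLA→B6 mice. The groups overlapped through HLA→B6 replicate 3. Ackr3 still passed, with a log2 fold change of 1.29 (SE 0.25, 95% interval 0.76 to 1.83; edgeR, adjusted p = 0.0413), where 0.604% of 8109 genes were called. It lost the call without TMM scaling (log2 fold change 1.37, adjusted p = 1.00). It also lost it without B6→B6 replicate 2, 3 or 4 (adjusted p = 0.110, 0.0685 and 0.120) and without HLA→B6 replicate 1 or 2 (0.179 and 0.202). The structural cells held red blood cells to an extent that differed from mouse to mouse, with red blood cell genes at 50579 to 524611 CPM in the B6→B6 and 57032 to 409147 CPM in the HLA→B6 mice.

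For that reason the endothelial clusters 0, 1, 2, 5 and 9 were also summed, a choice made after the data were seen. There, Ackr3 was at 185, 125, 90.3, 143 and 193 CPM in the B6→B6 mice and 410, 369 and 250 CPM in the HLA→B6 mice, without overlap (3.01% of 7265 genes). The log2 fold change was 1.34 (SE 0.24, 95% interval 0.81 to 1.86; edgeR, adjusted p = 0.0114, 1.31% of genes called), and the adjusted p was 0.0836 without HLA→B6 replicate 1 and 0.0544 when replicate 2 was left out instead. Cluster 2, the cluster low in Ackr3, gave 20.4% to 43.3% of the endothelial UMIs in the B6→B6 mice and 1.61% to 19.1% in the HLA→B6 mice, and its part in the summed result was not tested. In a sum over structural cells without clusters 4, 6, 7 and 10, also chosen after the data were seen, the means were 140 and 320 CPM and the log2 fold change 1.29 (edgeR, adjusted p = 0.0226, 1.03% of genes called). In all, Ackr3 passed in 3 of the 4 planned populations in which it could be tested by edgeR, and in 3 of them by DESeq2. These populations are nested, since clusters 0 and 5 are part of the structural cells, so the calls are not independent.

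**Figure D2:**
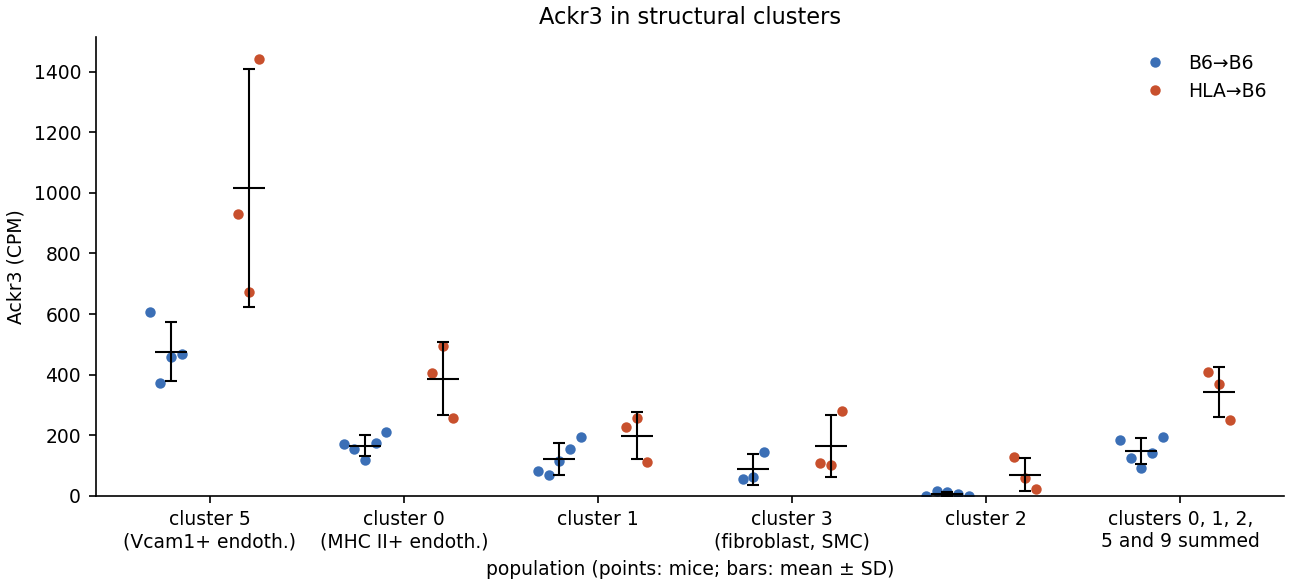
Ackr3 level (CPM, linear axis from 0) in the structural clusters and their endothelial sum, 1 point per mouse (blue B6→B6, red HLA→B6), with bars for the mean ± SD. The HLA→B6 points stand above all B6→B6 points in clusters 5 and 0 and in the sum, and overlap with them in clusters 1 and 3. In cluster 2 they also stand above, but the values there rest on few UMIs and were not tested.

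The share of structural cells with an Ackr3 UMI was compared as well. Thinned to 500 UMIs, 6.43, 4.58, 3.68, 5.47 and 5.73% of structural cells had an Ackr3 UMI in the B6→B6 mice and 14.5, 14.0 and 7.80% in the HLA→B6 mice, without overlap. The means were 5.18% ± 1.07 (SD, n = 5) and 12.1% ± 3.71 (n = 3), and 10.7% and 21.6% unthinned. In cluster 0, a share added after the data were seen, they were 7.18% ± 1.76 and 16.6% ± 2.96, with every HLA→B6 mouse higher. For both shares the two-sided exact permutation test over the 56 splits of the mice gave p = 0.0357, the smallest it can give, which became 0.0893 when adjusted over the 5 shares tested and so did not pass.

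Summed levels of some marker lists within the clusters moved with the groups, and a change in the cells of a cluster and a change of expression in the same cells cannot be told apart by them. In cluster 0 the 8 arterial genes summed to 1431 to 1819 CPM in the B6→B6 mice and 1086 to 1380 CPM in the HLA→B6 mice. Among cluster 0 cells with an arterial UMI, Ackr3 was at 167, 144, 107, 83.5 and 247 CPM in the B6→B6 mice and 352, 429 and 289 CPM in the HLA→B6 mice, without overlap. Among those with none, it was at 179, 190, 151 and 456 CPM in B6→B6 replicates 1 to 4 and 540, 613 and 157 CPM in the HLA→B6 mice, with overlap. Some of these values rest on few Ackr3 UMIs. In cells with an arterial UMI, B6→B6 replicates 2, 4 and 5 had 5, 5 and 3. In cells with none, B6→B6 replicates 1, 2 and 4 had 9, 2 and 9, and HLA→B6 replicate 3 had 4. The share of all genes apart in this way was not computed, so cells with and without arterial UMIs are not contrasted. In cluster 5 the pan-endothelial genes summed to 2341 to 4328 CPM in the B6→B6 and 4910 to 5908 CPM in the HLA→B6 mice, and the venous genes to 3855 to 6445 and 3164 to 3247 CPM. Their part in the cluster 5 result was not tested. T cell and B cell lists were at no more than 37.7 and 27.2 CPM in cluster 0 in any mouse.

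Cxcl12 itself did not pass the test in any of the 4 planned populations in which it could be tested (0 past the threshold by edgeR, 1 at an unadjusted p under 0.05, 0 by DESeq2). In cluster 0 it was at 356, 420, 757, 779 and 210 CPM in the B6→B6 mice and 385, 344 and 719 CPM in the HLA→B6 mice, and both groups spanned nearly the same range. The log2 fold change was -0.17 (95% interval -0.89 to 0.55; edgeR, adjusted p = 0.977), so a change of the size seen for Ackr3 in this cluster lies outside the interval of Cxcl12.

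In cluster 1, Cxcl12 was at 449, 538, 969, 572 and 876 CPM in the B6→B6 mice and 368, 202 and 617 CPM in the HLA→B6 mice. HLA→B6 replicates 1 and 2 were below all controls and replicate 3 was among them. The log2 fold change of -0.74 (95% interval -1.47 to -0.01) had an unadjusted p of 0.0474 in edgeR, as low as in 7.79% of genes, and an adjusted p of 0.637. In cluster 5, where Cxcl12 did not pass the filter on low counts, it was at 110, 170, 457 and 184 CPM in B6→B6 replicates 1 to 4 and 129, 248 and 226 CPM in the HLA→B6 mice, with overlap. Over all structural cells the values were 218, 139, 415, 279 and 78.8 CPM against 294, 212 and 216 CPM, with a log2 fold change of 0.22 (95% interval -0.45 to 0.88; edgeR, adjusted p = 0.965). In the sum of endothelial clusters the log2 fold change was 0.19 (95% interval -0.42 to 0.80; edgeR, adjusted p = 0.911).

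Fibroblasts are a textbook source of Cxcl12, and in cluster 3 the level was at 54.7, 530 and 137 CPM in B6→B6 replicates 1, 3 and 4 and 313, 68.1 and 704 CPM in the HLA→B6 mice. B6→B6 replicates 2 and 5 had under 10 such cells. Values in each group ranged over more than the difference of the means, and the log2 fold change of 0.31 had a 95% interval from -1.27 to 1.89 (edgeR, adjusted p = 0.970, 0.317% of genes called). The share of these cells with a Cxcl12 UMI, thinned to 500 UMIs, was 5.61, 16.0 and 7.52% against 12.1, 4.32 and 15.5% (two-sided exact permutation p = 1.00, in a design of 3 against 3 that cannot go below 0.100).

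**Figure D3:**
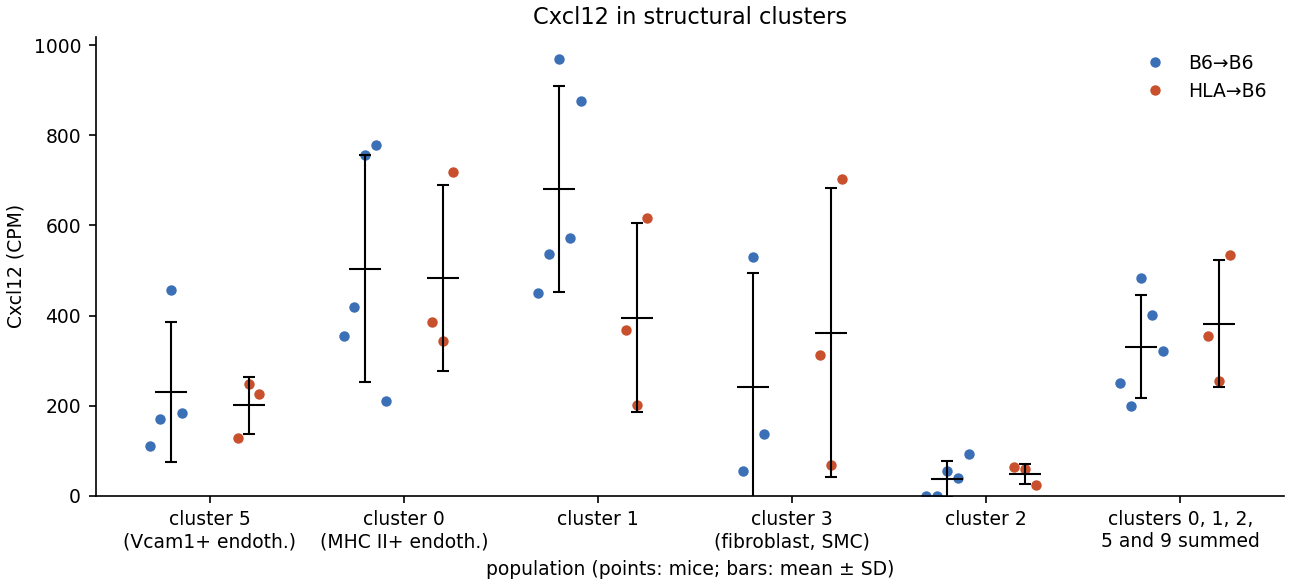
Cxcl12 level (CPM, linear axis from 0) in the same structural clusters and sum, 1 point per mouse (blue B6→B6, red HLA→B6), with bars for the mean ± SD. The groups overlap in every cluster shown, and the widest separation of the means is in cluster 1, at 681 and 396 CPM.

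Cxcr4 passed in 0 of the 10 planned populations in which it could be tested by edgeR (0 at an unadjusted p under 0.05, and 0 by DESeq2, which gave no adjusted p in 1). In B cell cluster 0 it was at 101, 81.4, 147, 345 and 318 CPM in the B6→B6 mice and 164, 150 and 330 CPM in the HLA→B6 mice. High values came from 2 mice of the B6→B6 group (replicates 4 and 5) and from replicate 3 of the HLA→B6 group, and the other mice of both groups were low. The log2 fold change was 0.03 (95% interval -0.78 to 0.85; edgeR, adjusted p = 1.00). Over all B cells it was 0.05 (95% interval -0.87 to 0.96; edgeR, adjusted p = 1.00, 0.117% of genes called), and the share of B cells with a Cxcr4 UMI, thinned to 1000 UMIs, was 10.4, 8.95, 13.6, 27.5 and 25.8% against 13.2, 13.6 and 26.8% (two-sided exact permutation p = 0.750).

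Monocytes had the same mice high, at 175, 93.7, 140, 296 and 269 CPM in the B6→B6 and 120, 224 and 307 CPM in the HLA→B6 mice. Their log2 fold change was 0.06 (95% interval -0.71 to 0.84; edgeR, adjusted p = 0.999, 0.0230% of genes called). T cells had 82.7, 52.4, 62.9, 129 and 85.9 CPM against 69.2, 54.4 and 112 CPM. Here the log2 fold change was -0.19 (95% interval -0.89 to 0.51; edgeR, adjusted p = 0.968, 0.0698% of genes called), and the thinned shares of T cells with a UMI, 5.38 to 10.8% and 5.55 to 10.1%, gave a two-sided exact permutation p of 0.857. Alveolar macrophages, in which 12.3% of 5798 genes were called, had 142, 60.5, 87.5, 104 and 116 CPM against 127, 87.1 and 118 CPM and a log2 fold change of 0.34 (95% interval -0.17 to 0.85; edgeR, adjusted p = 0.362).

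The remaining populations were as variable. The cells annotated as leukocytes had 250, 221, 421, 640 and 957 CPM in the B6→B6 mice and 336 and 424 CPM in HLA→B6 replicates 1 and 2, replicate 3 having too few cells. Myeloid cells had 47, 19.4, 38.2, 106 and 150 CPM against 48.7, 29.9 and 16.8 CPM, with a log2 fold change of -0.91 and a 95% interval of -2.20 to 0.37 (edgeR, adjusted p = 0.999). NK cells lay at 34.9 to 126 CPM in the B6→B6 and 58.6 to 107 CPM in the HLA→B6 mice. In these 3 populations, as in B cell clusters 0 and 1, 0% of genes passed the threshold.

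**Figure D4:**
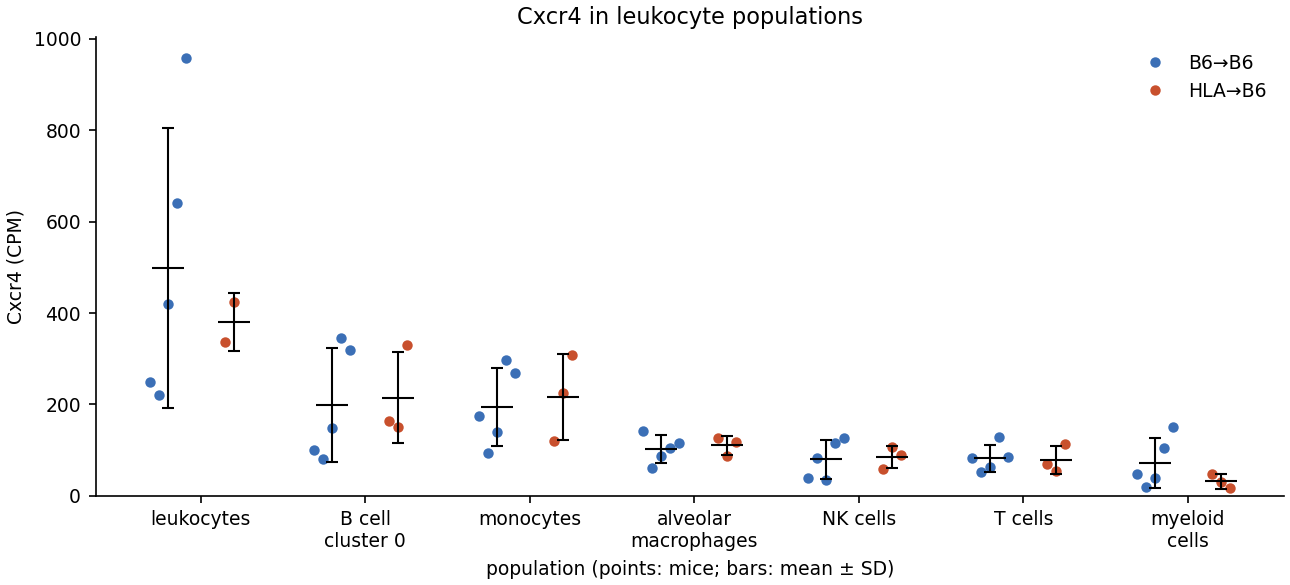
Cxcr4 level (CPM, linear axis from 0) in 7 leukocyte populations, 1 point per mouse (blue B6→B6, red HLA→B6), with bars for the mean ± SD. The groups overlap in each population, and in B cell cluster 0 the points form a low and a high set that each hold mice of both groups.

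Cxcr4 levels were also set beside the barcode-linked libraries. In B cell cluster 0 the 4 linked libraries had 81.4 to 150 CPM and the other 4 had 164 to 345 CPM, without overlap, although HLA→B6 replicate 1, at 164 CPM, lay close to the linked ones. The share of all genes that lay apart between these libraries was not computed, so whether Cxcr4 is unusual in this is not known. Over all B cells the 2 sets touched, at 82.1 to 137 CPM and 137 to 360 CPM, and they also overlapped in T cells, monocytes, alveolar macrophages, NK cells, myeloid cells, leukocytes and structural cells. A 9-gene immediate early list, genes that respond to tissue digestion, summed in B cell cluster 0 to 2640 to 3821 CPM in the linked and 1052 to 4052 CPM in the other libraries, and overlapped. The sets were read from the data, hold both groups of mice, and carry no label, so this is a description of the libraries and their part in the comparison of groups was not tested beyond the fit with the set as a block.

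**Figure D5:**
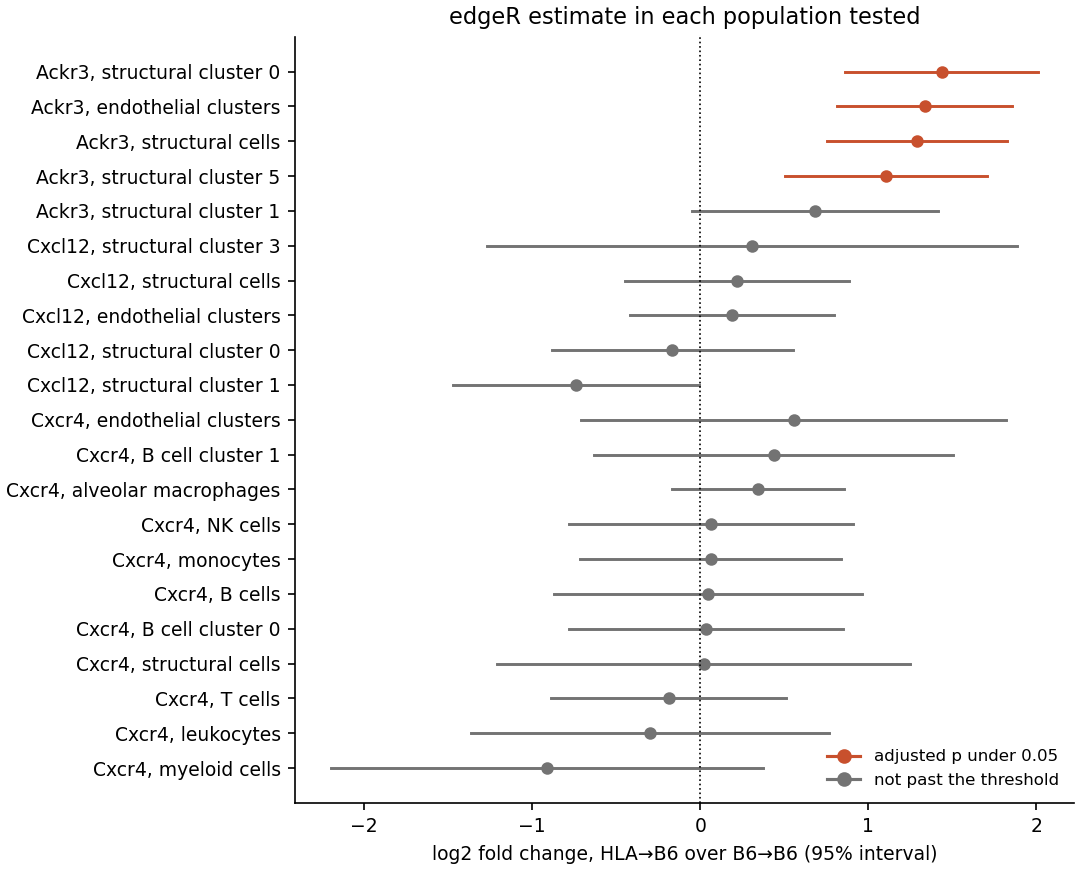
Fitted log2 fold change, HLA→B6 over B6→B6, with its 95% interval for each member in the planned populations where it could be tested and in the endothelial sum, red where the adjusted p passed 0.05 and grey where it did not. The 4 red intervals are those of Ackr3 in cluster 0, the endothelial sum, all structural cells and cluster 5, and the Cxcl12 and Cxcr4 intervals lie around 0, that of Cxcl12 in cluster 1 just below it.

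Around the 3 members, 38 listed genes of the axis were read in the same fits: other ligands and binding partners, the protease Dpp4, couplers, arrestins and kinases of the receptors, regulators of G protein signalling, effectors of migration, and transcription factors tied to Cxcr4. Of the 28 tested in structural cells 0 passed, where 0.604% of all genes did, with a median log2 fold change of -0.07 beside -0.01 over all genes tested. In B cells 0 of 28 passed beside 0.117% of all genes, and in monocytes 0 of 29 beside 0.0230%. At these shares of all genes, a count of 0 says nothing particular about the list.

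In T cells 1 of 31 passed, in a population where 0.0698% of genes did. Rgs16, which speeds the turn-off of Gi signalling and so dampens chemokine receptors, was at 5.70, 2.62, 17.4, 3.96 and 2.68 CPM in the B6→B6 mice and 45.4, 75.6 and 40.3 CPM in the HLA→B6 mice. Every HLA→B6 mouse was higher (3.96% of 7164 genes), with a log2 fold change of 2.97 (SE 0.46; edgeR, adjusted p = 0.0425). The B6→B6 values rest on 1 to 16 UMIs per mouse. Rgs16 passed the filter on low counts through the HLA→B6 mice, where it was high, so its call adds no support beyond these values. The call was lost without B6→B6 replicate 1, 2 or 5 (edgeR adjusted p = 0.112, 0.0678 and 0.101) or without HLA→B6 replicate 1, 2 or 3 (0.107, 0.394 and 0.0923).

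In alveolar macrophages 2 of 27 passed beside 12.3% of all genes. Rgs1, of the same family, was at 139, 136, 128, 81.0 and 126 CPM against 211, 273 and 213 CPM, without overlap, as for 5.14% of genes higher in this way, with a log2 fold change of 1.20 (SE 0.21; edgeR, adjusted p = 0.00878). Grk3, a kinase that phosphorylates activated receptors so that arrestins bind, was at 13.2, 12.5, 22.4, 13.9 and 17.6 CPM against 43.3, 22.9 and 19.6 CPM, with overlap (log2 fold change 1.14; edgeR, adjusted p = 0.0372), and its call was lost under DESeq2 (adjusted p = 0.0528), without TMM scaling (edgeR adjusted p = 0.0866), with the replicate block (0.226), without B6→B6 replicate 1, 2, 4 or 5 (edgeR adjusted p = 0.0709, 0.0566, 0.115 and 0.0589) and without HLA→B6 replicate 1 or 2 (0.187 and 0.0808).

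In endothelial cluster 0, 0 of 14 listed genes passed beside 0.686% of all genes, and in cluster 1, 0 of 11 beside 1.02%. In the endothelial sum 0 of 23 passed beside 1.31%. At these shares of all genes, such counts of 0 say nothing particular about the list. In cluster 5, 1 of 6 listed genes passed, and in cluster 2, 1 of 7, the same gene in both. This gene was Cd74, the surface receptor of the chemokine-like cytokine Mif and a partner of Cxcr4. In cluster 5, where 9.02% of all genes passed, it was at 1340, 2103, 2886 and 1313 CPM in B6→B6 replicates 1 to 4 and 10257, 15551 and 5097 CPM in the HLA→B6 mice, a log2 fold change of 2.54 (SE 0.34; edgeR, adjusted p = 0.000689). In cluster 2 it was at 0 CPM in 4 of 5 B6→B6 mice and 6.08 CPM in the other, and at 896, 2929 and 419 CPM in the HLA→B6 mice (edgeR, adjusted p = 0.000124, with 0.243% of 1643 genes called). The B6→B6 mice held at most 2 Cd74 UMIs there, so the gene entered the test through the HLA→B6 mice, where it was high. Its adjusted p in cluster 2 therefore adds no support beyond these values. Cd74 is also the invariant chain of MHC class II, and it was among the genes the authors used to estimate free RNA, and whether the deposited counts are from before or after that correction is not stated in the sources used here.

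The genes whose pattern over 23 populations was most like that of each member were named by Pearson's correlation of log2(CPM + 1) of pooled counts among 11593 genes, as a description. For Cxcl12 these were Fam107a (r = 0.956), Tmem252 (0.955), Arhgef15 (0.952), Ptprb (0.948) and Ushbp1 (0.941). For Ackr3 they were Gja4 (0.948), Ephb4 (0.946), Tek (0.944), Fbxl7 (0.940) and S100a16 (0.935). Ptprb, Ephb4 and Tek are receptors or phosphatases of blood vessel endothelium, and Gja4 is an endothelial connexin and a member of the arterial list used above. For Cxcr4 they were Stk17b (0.932), Il17ra (0.923), Arhgap15 (0.906), Gm26740 (0.905) and Coro1a (0.905), of which Coro1a is an actin-binding protein of leukocytes. Between the members, Cxcl12 and Ackr3 correlated at 0.875, Cxcl12 and Cxcr4 at -0.407, and Ackr3 and Cxcr4 at -0.569, over populations that share libraries and differ in depth.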

How the data were processed

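The authors deposited whole-number UMI counts per gene and cell, made with Cell Ranger on mm10 (GRCm38) and analysed in Seurat, with a table of cell types, clusters and samples. Free RNA was estimated with SoupX, and neither versions nor whether these counts precede that step are given in the sources used here. Cell types and clusters were taken from that table and mice from the sample labels. For each population, the counts of a mouse with at least 10 of its cells were added up and tested by edgeR's quasi-likelihood test (edgeR 4.0.16, R 4.3.3; TMM, filterByExpr with a minimum count of 10, Benjamini-Hochberg over all genes tested, threshold 0.05). DESeq2 1.42.0 was an alternative. Shares of cells with a UMI are expected values after thinning to 500 UMIs (structural cells) or 1000 (others), compared by exact permutation. The fits were run on simulated counts with 200 changed genes and the same fixed spread between mice for every gene. That spread was not drawn from these mice, so the run does not measure how the fits perform on these data. Gene names matched GENCODE vM21 for 98.8% of genes. The members and gene lists were chosen with earlier results of these data known. Named genes were the members, the 5 most alike in pattern, and listed partners past the threshold. Doublets were not called again.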

Additional observations from a re-analysis of the deposited data

How the results depend on the processing

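Over 30 results and 444 alternatives, 339 kept their direction and side of the threshold, 55 kept the direction and no longer lay under 0.05, 50 turned direction, none of those a called result, and 1 DESeq2 adjusted p was not given. Shares were counted here by their unadjusted exact permutation p. The 55 hold 9 alternatives for each Ackr3 share, and neither share had passed when adjusted. With a mouse left out, the p of these shares cannot fall under 0.05, as given below. Replicate numbers did not pair the mice (correlations of same-numbered deviations -0.185 to 0.164 in structural, T and B cells). With the replicate block, Ackr3 lost its call in structural cells (log2 fold change 1.41, edgeR adjusted p = 0.0728) and cluster 5 (1.08, 0.0716), Cxcr4 in B cells reached an adjusted p of 0.0501 without passing, and Cxcr4 turned to 0.21 in T cells, 0.66 in leukocytes and 0.073 in myeloid cells. With the barcode-linked set as a block, Ackr3 lost it in structural cells (1.28, 0.0539) and cluster 5 (0.99, 0.0953), and Cxcr4 turned to -0.16 in B cell cluster 0, -0.13 in B cells, -0.032 in NK cells and -0.18 in structural cells. Ackr3 had a log2 fold change of 1.37 in structural cells without TMM, and in cluster 5 of 0.93 without the filter (edgeR adjusted p = 0.486) and 0.75 with at least 20 cells per mouse. Cxcr4 in structural cells was -0.22 by DESeq2 and -0.046 with shared barcodes left out. Cxcl12 in cluster 3 was -0.0069 with at least 20 cells per mouse, and the difference in its share of cells, HLA→B6 minus B6→B6, was -1.20 points unthinned and -4.67 thinned to 1000 UMIs. The Ackr3 share in structural cells differed by 10.6 points thinned to 1000 UMIs (exact permutation p = 0.0714). The causes were not tested.

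Leaving out 1 mouse at a time gave log2 fold changes for Ackr3 of 1.12 to 1.45 in structural cells, 1.23 to 1.64 within cluster 0, 0.81 to 1.27 within cluster 5 and 1.17 to 1.52 in the endothelial sum. For Cxcl12 it gave -0.12 to 0.47 in structural cells, -0.48 to 0.036 within cluster 0, -0.33 to 1.52 within cluster 3 and -0.089 to 0.42 in the endothelial sum. For Cxcr4 it gave -0.47 to 0.32 in B cell cluster 0, -0.029 to 1.34 in B cell cluster 1, -0.59 to 0.32 in B cells, -0.19 to 0.39 in NK cells, -0.52 to 0.072 in T cells, -0.26 to 0.40 in monocytes and -0.38 to 0.38 in structural cells. Differences in shares ranged from -3.88 to 3.15 points for Cxcr4 in B cells, -1.53 to 0.75 in T cells, -1.48 to 4.11 for Cxcl12 in cluster 3 and 5.71 to 9.04 for Ackr3 in structural cells, where 4 against 3 mice cannot go below p = 0.0571 and 5 against 2 below 0.0952 in an exact permutation test.

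The number of genes called moved by over 1.5 times. It was 49 in structural cells (10 to 130 over alternatives), 25 in cluster 0 (2 to 115), 24 in cluster 1 (1 to 89), 65 in cluster 5 (20 to 70), 4 in cluster 2 (2 to 59), 4 in cluster 3 (0 to 50), 7 in B cells (0 to 73), 5 in T cells (0 to 61), 1 in monocytes (1 to 98) and 712 in alveolar macrophages (180 to 1253). Where 0 were called, alternatives reached 153 in myeloid cells, 38 in NK cells, 26 in leukocytes, 20 in B cell cluster 0 and 69 in B cell cluster 1. Depth limits Ackr3 and Cxcl12 in leukocytes, where neither passed the filter on low counts, and levels there cannot be told apart from free RNA.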
